A study of Mus musculus with 12 samples.

Results

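In mouse intestinal epithelium, 7350 of 82365 open chromatin regions (8.92%) had a peak in the Sox9 Negative, Sublow and Low populations and none in the Sox9 High population. The regions were found by merging the peaks of the 4 populations' lists wherever they overlapped by 1 bp or touched. A merged region was a member when the lists of the other populations each had a peak in it and the High list had none. The members were thus chosen by presence in the 4 lists, and their absence from High is a description, not a result.

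Sox9 is a transcription factor of the intestinal crypt, and in mice with an EGFP reporter of Sox9 the reporter level separates epithelial cells by lineage stage. In published work with this reporter, cells with no EGFP are mainly differentiated villus cells, Sublow cells are mostly cycling progenitors, Low cells include the crypt base stem cells, and High cells are rich in enteroendocrine and other secretory types. Open chromatin is DNA that Tn5 transposase can reach, and it marks promoters, enhancers and other bound elements. Earlier work on mouse intestine found much of the open chromatin of stem cells shared with the progenitors of both the absorptive and the secretory lineage.

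The mice were of strain C57Bl/6, all groups carried the Sox9 EGFP reporter, and cells of the 4 EGFP levels (Negative, Sublow, Low and High) were profiled by Omni-ATAC, a form of ATAC-seq with a modified lysis and transposition step, with 3 libraries each and 12000 cells collected per population. The labels name no treatment, age or sex, and do not say whether libraries came from separate animals or pooled ones. Each population is represented by 1 consensus list, of 45461 peaks for Negative, 52113 for Sublow, 58356 for Low and 54395 for High. The lists hold positions only, so depth is unknown, no value has a replicate error, and no test across libraries could be made. The 95% intervals given are exact binomial intervals, which treat regions as independent and cover counting error only. A lower share of cells with an open site and a less open site in each cell cannot be told apart in sorted bulk material.

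Of the 34644 regions that Negative, Sublow and Low all held, 21.2% lacked a High peak. The other lists lacked 18.4% (Negative), 1.07% (Sublow) and 1.56% (Low) of the regions that the remaining 3 lists held. Of the 28738 regions without a High peak, 25.6% were members, and the rest were held by 1 or 2 of the other lists.

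The members were regions of moderate size. Their median width was 455 bp (450 to 461), the middle 50% of them ran from 345 to 593 bp, and the narrowest and widest spanned 153 and 1883 bp. Regions of all 4 lists were wider, at a median width of 743 bp (738 to 748), and regions missing from Negative only were close to the members, at 474 bp (466 to 479). A width of 1000 bp was reached by 197 members, or 2.68% (2.32 to 3.08%), against 25.5% (25.01 to 26.05%) of the regions of all 4 lists. Over all merged regions the median width was 409 bp (406 to 412), below that of the members, and 9.12% (8.93 to 9.32%) reached 1000 bp. A merged region grows with each list that adds a peak, so widths of single peaks are compared next.

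How often High lacked a region fell steeply with the size of the peaks in the other populations. Where the widest peak of Negative, Sublow or Low was under 250 bp, High lacked 54.3% of regions (51.2 to 57.3%). The share was 40.5% (39.5 to 41.5%) from 250 to under 500 bp, 19.7% (19.0 to 20.5%) from 500 to under 750 bp, 7.99% (7.36 to 8.66%) from 750 to under 1000 bp, and 2.48% (2.11 to 2.90%) from 1000 bp up. The last value was 5.27% when peaks had to overlap by 50% of both, and 5.37% with the widest peaks of each list only, so its size depends on how peaks are joined and chosen. Under either setting a region can count as missing although the full High list has a peak there. The regions that only Negative lacked followed nearly the same course, with 51.4%, 35.6%, 17.9%, 7.73% and 3.10% in the same classes of width.

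The shares of the 2 lists were told apart at middle widths only. The intervals of High and Negative were apart between 250 and 750 bp, with more regions missing from High, and overlapped at the narrowest and in both wider classes. Low and Sublow stood far below in every class. From 500 to under 750 bp, Low lacked 0.888% (0.701 to 1.11%) and Sublow 0.579% (0.432 to 0.761%) of the regions of the 3 other lists. Wide regions missing from High were thus rare but not absent. Of 6363 regions that Negative, Sublow and Low all held with a widest peak of at least 1000 bp, 158 had no High peak. For each other list the set was the wide regions that the remaining 3 lists held. Negative lacked 205 of 6606, Sublow 1 of 5792 and Low 3 of 6162. The lists give no signal, and the part that the limit of peak calling or the depth of the High libraries has in the missing share was not tested.

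**Figure D1:**
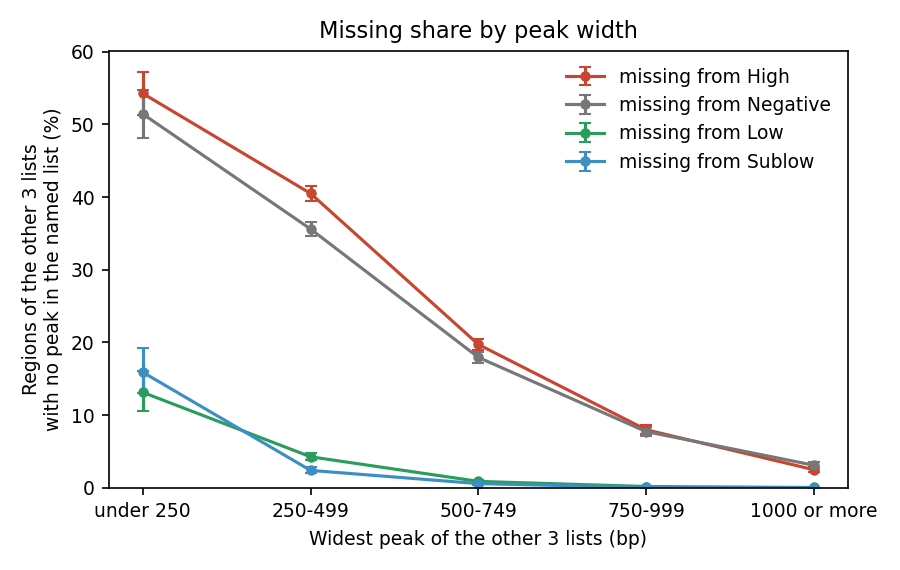
Share of regions held by the other 3 lists that had no peak in the named list (y axis, percent), by the width of the widest peak among those 3 lists (x axis, bp); bars are exact 95% binomial intervals. The High and Negative lines start at 54.3% and 51.4% and reach 2.48% and 3.10%, while Low and Sublow stay at or below 15.9%.

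Within the members Sublow most often had the widest peak, as it did in regions of all 4 lists. In 7165 members each list had exactly 1 peak, and the median peak width was 319 bp for Negative (313 to 325), 399 bp for Sublow (394 to 403) and 344 bp for Low (339 to 349). Few peaks were broken up: Negative had 2 peaks in 83 members, Sublow in 31 and Low in 99. Peaks under 200 bp made up 20.4% of the Negative peaks, 6.02% of the Sublow peaks and 14.3% of the Low peaks. In 25913 regions of all 4 lists with 1 peak in each of these lists, the shares were 8.44%, 1.77% and 1.86%. Sublow had the widest peak in 47.3% of these members (46.1 to 48.4%), Low in 26.1% (25.1 to 27.1%) and Negative in 25.9% (24.9 to 26.9%). In regions of all 4 lists Sublow was widest in 45.6% (44.96 to 46.18%), and Sublow peaks also had the highest median width of the whole lists, at 464 bp.

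**Figure D2:**
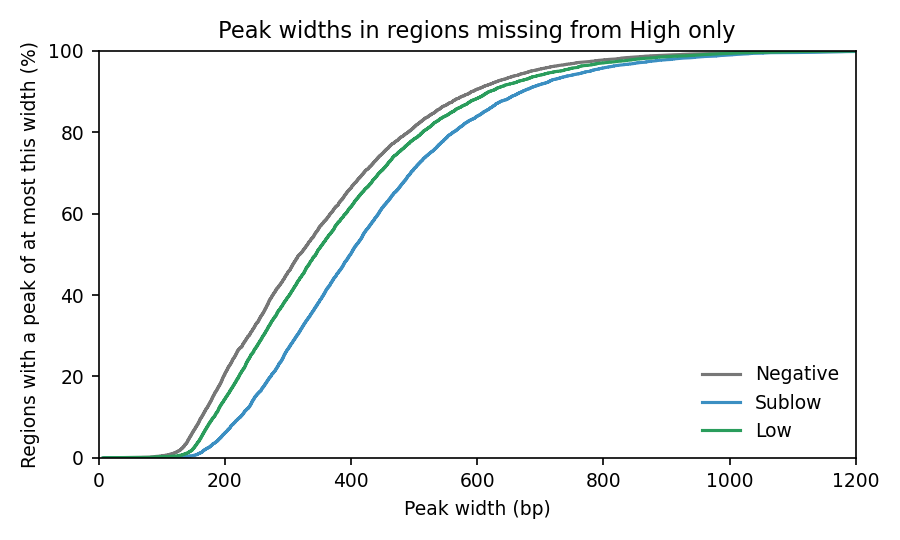
Cumulative share of the 7165 members with 1 peak per list (y axis, percent) whose peak is at most the width on the x axis (bp, the longest tail not shown), for the Negative, Sublow and Low lists. The Sublow curve lies to the right: medians are 319 bp for Negative, 399 bp for Sublow and 344 bp for Low.

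Relative to the other lists, the Negative peak was wide more often in the members than in regions that High also held. In bp it was narrower, at a median of 319 bp in members against 530 bp (525 to 535) in regions of all 4 lists. Negative had the narrowest of the 3 peaks in 52.3% of members and 76.9% of regions of all 4 lists. Negative had the widest of the 3 peaks in 25.9% of members, against 10.5% (10.1 to 10.9%) of 25913 regions of all 4 lists. This held at like sizes: with a widest peak from 500 to under 750 bp the shares were 25.8% (23.9 to 27.8%) of members and 10.5% (9.85 to 11.2%) of regions of all 4 lists, and at 750 bp or more they were 22.3% (19.0 to 26.0%) and 7.09% (6.62 to 7.58%). Low showed the opposite. It had the widest peak in 25.7% of members (23.8 to 27.7%) against 41.9% (40.9 to 43.0%) of regions of all 4 lists from 500 to under 750 bp, whereas Sublow differed by less, at 47.9% (45.8 to 50.1%) against 46.3% (45.3 to 47.4%), with intervals that overlap. From 250 to under 500 bp, the class with most members, Negative was widest in 27.1% (25.7 to 28.5%) of members against 16.5% (15.5 to 17.5%) of regions of all 4 lists, Low in 25.7% (24.3 to 27.1%) against 43.4% (42.2 to 44.7%), and Sublow in 46.4% (44.8 to 47.9%) against 38.6% (37.4 to 39.9%).

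Read the other way, the balance of Negative and Low peak width went with the share of regions that High lacked. Among regions of the 3 lists with a widest peak from 500 to under 750 bp, High lacked 67.2% (61.7 to 72.4%) of the 311 in which the Negative peak was at least 2 times as wide as the Low peak. It lacked 44.1% (40.5 to 47.7%) of the 751 with a ratio from 1.25 to under 2. Where the peaks were within 0.8 to 1.25 of each other, High lacked 15.0% (14.0 to 16.0%) of 4933 regions.

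The relation was lopsided. With a Negative peak under 0.5 times the Low peak, High lacked 22.8% (20.7 to 25.1%) of 1450 regions in that size class. That was above the share for like widths and far below the share for Negative peaks at least 2 times as wide as the Low peak. At 750 bp or more, High lacked 46.7% (36.9 to 56.7%) of 105 regions with a Negative peak at least 2 times the Low peak, 2.71% (2.36 to 3.10%) of 7526 regions with like widths, and 12.0% (9.94 to 14.3%) of 901 regions with a Negative peak under 0.5 times the Low peak. From 250 to under 500 bp the shares were 72.1% (66.8 to 76.9%) at a ratio of 2 or more, 37.6% (36.1 to 39.2%) at like widths and 33.1% (30.5 to 35.8%) under 0.5. Across the 3 size classes, then, regions more extended in the Negative population than in the Low population were those most often without a High peak. Regions with a Negative peak wider than the Low peak were still a minority of the members. Of members with 1 peak per list, Negative was wider than Low in 44.0% (42.9 to 45.2%), against 19.3% (18.8 to 19.8%) of regions of all 4 lists.

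**Figure D3:**
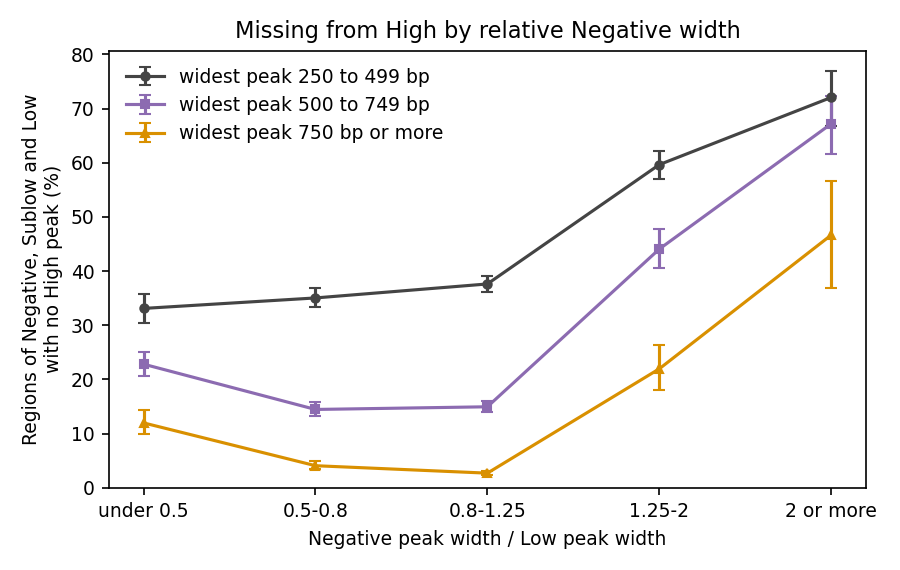
Share of the regions with a single peak per list in Negative, Sublow and Low that had no High peak (y axis, percent), by Negative peak width divided by Low peak width (x axis) and by the width of the widest of the 3 peaks (lines); bars are exact 95% binomial intervals. All 3 lines are highest at a ratio of 2 or more, at 72.1%, 67.2% and 46.7%.

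The 3 peaks of a member coincided less closely than those of a region that High also held. The bases common to the Negative, Sublow and Low peaks made up a median of 61.9% (61.2 to 62.5%) of their outer span in members, against 75.3% (75.02 to 75.62%) in regions of all 4 lists. With an outer span from 400 to under 600 bp the medians were 59.8% (58.5 to 60.9%) in 2797 members and 68.9% (68.2 to 69.6%) in 6299 regions of all 4 lists. In the same class of span, median distances between peak centres in members were 29.5 bp for Negative and Sublow, 25 bp for Sublow and Low, and 35.5 bp for Negative and Low, against 26.5, 19 and 29.5 bp in regions of all 4 lists, with intervals apart for each pair. Over all spans, where regions of all 4 lists are wider, the distances were 26, 23 and 31.5 bp in members and 30, 20.5 and 33.5 bp in regions of all 4 lists. In 26 of 7165 members the 3 peaks had no base in common and were joined only through overlaps in pairs. The 3 peaks had no common base in 25 of 25913 regions of all 4 lists.

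The Low peak lay wholly inside the Sublow peak in 50.9% of members (49.8 to 52.1%), against 33.2% (32.6 to 33.8%) of regions of all 4 lists. The Negative peak lay inside the Low peak in 40.4% (39.2 to 41.5%) of members, against 64.5% (63.9 to 65.1%) of regions of all 4 lists. Members thus had nested Low peaks more often, and nested Negative peaks less often, than regions with a High peak.

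Few members had a High peak directly beside them, which follows in part from the rule. A region that a High peak overlapped or touched was not a member. Within 500 bp, 4.11% (3.67 to 4.59%) of members had a High peak. Of regions missing from Negative only, 2.93% (2.53 to 3.39%) had a Negative peak that near. These counts concern position only, and how close a peak was to the limit of calling is not known. A High peak lay less than 50 bp from 4 members and less than 100 bp from 8. The nearest was on chromosome 2, where a High peak of 198 bp (chr2:30626978-30627175) ended 2 bp before a member at chr2:30627178-30627905. Its Negative peak measured 137 bp, its Sublow peak 701 bp and its Low peak 718 bp. On the other side of the rule, in 7 of the 27294 regions of all 4 lists no High peak shared 10 bp or more with any other peak, and in 97 none shared 100 bp or more. In 3606 of the 27294 the widest High peak was under 0.5 times as wide as the widest other peak.

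Most members lay some kilobases from any High peak. The median gap was 6027 bp (5801 to 6237), and 10.9% (10.2 to 11.6%) of members had a High peak within 1000 bp. For regions missing from Negative only, the gap to the nearest Negative peak was longer, at a median of 11370 bp (10919 to 11880), but the Negative list is shorter than the High list, so these gaps are set side by side and not ranked. A gap of 100 kb or more was found for 205 members (2.79%).

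The members farthest from any High peak were on chromosomes X, 3 and 16. At chrX:64492087-64492514 the nearest High peak was 1438962 bp away, and the Negative, Sublow and Low peaks measured 128, 301 and 428 bp. At chr3:71078235-71078980, with a gap of 1242814 bp, they measured 437, 742 and 705 bp in the same order of lists. At chr16:54229646-54230286, with a gap of 1239037 bp, they were of near equal size, at 561, 641 and 631 bp.

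Members lay nearer to regions of all 4 lists than the regions that Negative lacked did, and farther from High-alone regions. The nearest region of all 4 lists was a median of 9696 bp away (9266 to 10135), against 16428 bp (15691 to 17134) for regions missing from Negative only and 10673 bp (10481 to 10866) between regions of all 4 lists themselves. The nearest High-alone region was a median of 44661 bp (43074 to 46485) from members, against 33052 bp (31632 to 34467) from regions missing from Negative only and 38049 bp (37264 to 38682) from regions of all 4 lists. Isolation went with absence from Negative more than with absence from High. For regions with a widest peak from 250 to under 500 bp, High lacked between 37.8% and 41.6% in the 4 classes of spacing below 100 kb to the next region of the 3 lists, and 50.5% (44.5 to 56.6%) at wider spacing. Negative lacked 28.8% (25.9 to 31.8%) where the next such region was within 1000 bp and 57.4% (51.8 to 62.9%) beyond 100 kb.

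Members tended to lie next to other members. Among regions of Negative, Sublow and Low, the nearest other such region also lacked a High peak for 28.6% of members (27.6 to 29.7%), against 21.1% (20.6 to 21.6%) of the regions that High held. The gap between the shares was present when the nearest region lay within 5000 bp (28.5% against 24.3%), from 5000 bp to under 20 kb (29.2% against 19.7%) and farther away (27.8% against 19.2%). For regions that Negative lacked, the shares were 26.2% (25.1 to 27.3%) and 15.8% (15.4 to 16.3%).

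The surroundings of the members in regions open in High alone depended on the measure. A High-alone region lay within 5000 bp of 10.5% of members (9.84 to 11.3%), against 10.8% (10.1 to 11.7%) of regions missing from Negative only and 8.48% (8.15 to 8.81%) of regions of all 4 lists. As next regions and over whole windows they were fewer. Counting both sides of each member, 13.4% of the next regions were members too, against 8.92% of all merged regions. High-alone regions made up 10.96% of the next regions, against 16.6% of all. Some other frequent kinds with a High peak were fewer too. Regions of Low and High only made up 3.77% against 5.98%, and regions missing from Negative only 5.87% against 7.49%. Regions of all 4 lists were not fewer, at 34.4% against 33.1%, nor were the rare regions of Negative and High only, at 0.796% against 0.654%. Of the kinds without a High peak, only Low alone was less frequent, at 5.81% against 6.41%. Negative alone, for example, made up 8.81% against 6.82%. In windows of 100 kb with at least 8 regions, High-alone regions were 10.6% (9.16 to 12.2%) of the regions that were not members where a window held 4 or more members, and 16.6% (16.0 to 17.1%) where it held none. Of the 180 windows with 4 or more members, 88 had no High-alone region (48.9%, 41.4 to 56.4%), against 22.5% (20.4 to 24.6%) of the 1527 windows with no member. A window has a limited number of regions and these classes exclude each other, so part of the contrast follows from counting.

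The windows with the most members held 7 each. They were chr5:53400001-53500000 with 16 regions, chr14:20900001-21000000 with 18, and chr18:42200001-42300000 with 12. The median Negative, Sublow and Low peaks of members were 488, 548 and 365 bp in the chromosome 5 window and 527, 540 and 496 bp on chromosome 14. On chromosome 18 the Negative peaks were narrower than the others, at 293, 430 and 408 bp. Next in genome order among windows with 6 members came chr1:156900001-157000000 with 15 regions and chr1:193000001-193100000 with 13. None of the 5 windows held a High-alone region, and between 2 and 4 regions in each had a High peak. Members lack a High peak by the rule, and the windows were picked for holding the most members. Few High peaks in them thus follow in part from the choice. Of all 82365 merged regions, 53627 had a High peak.

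Of the members, 5539 stood alone between regions of other kinds, and 1811 formed 827 runs of neighbouring members. Members were 8.92% of all merged regions. Runs were not counted for regions of another kind, so these counts have no background beside them. The longest run held 6 members over 89512 bp at chr6:18221040-18310551, with the nearest High peaks 20958 bp before it and 12142 bp after it. Its widest member, chr6:18264307-18265027, had a Negative peak of 373 bp, a Sublow peak of 721 bp and a Low peak of 647 bp. The fifth, chr6:18299225-18299775, differed from that one, with a Negative peak of 551 bp, a Sublow peak of 195 bp and a Low peak of 210 bp. In the first, chr6:18221040-18221404, Negative was also widest and Sublow narrowest, with Negative, Sublow and Low peaks of 362, 273 and 320 bp. The order of the widths thus varied within the run.

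**Figure D4:**
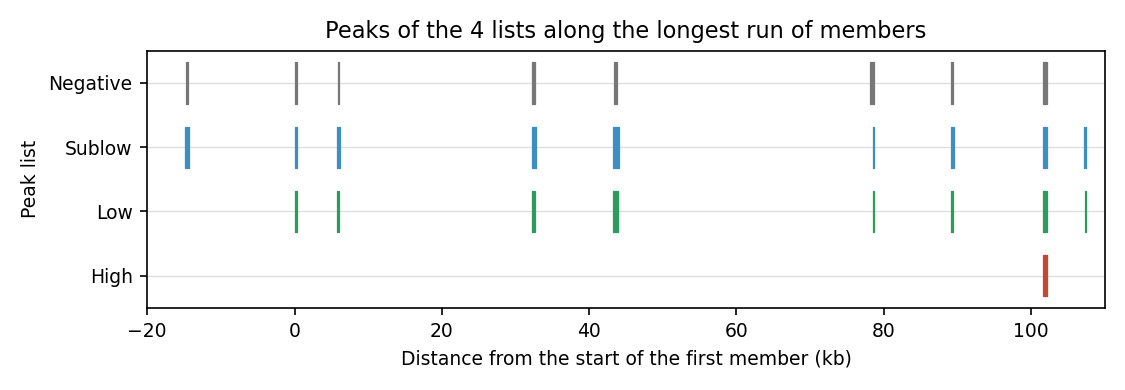
Peaks of the Negative, Sublow, Low and High lists (rows) along the run of 6 members on chromosome 6 and 20 kb on either side, by distance from the start of the first member (x axis, kb). Each bar is 1 peak drawn to scale, and the single High peak lies after the last member, in the 1 region of the stretch that all 4 lists held.

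The other runs named had 5 members each. At chr2:146391427-146415997 the run spanned 24571 bp, and 1 member with a Low peak of 1077 bp stood out among others with a total width of 334 to 450 bp. At chr6:94045428-94067463 it spanned 22036 bp, with members of 476 to 972 bp. The most compact was chr9:77364611-77378513, with 5 members in 13903 bp and High peaks 1186 bp before and 3386 bp after it. At chr18:56596859-56621010 the run spanned 24152 bp, with members of 329 to 696 bp.

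Each of the 5 widest members had more than 1 peak in at least 1 list. The widest, chr1:192989743-192991625, covered 1883 bp with a Negative peak of 302 bp, a Sublow peak of 1746 bp and 2 Low peaks, the wider of 1066 bp. At chr6:127102428-127104257 (1830 bp) the Negative peak was 366 bp, the Sublow peak 1816 bp and the wider of 2 Low peaks 1305 bp. At chr1:108089492-108091295 (1804 bp) Low had a single peak of 1804 bp, and Negative and Sublow had 2 peaks each, the wider of 230 and 1226 bp. At chr3:144422870-144424647 (1778 bp) the pattern was similar, with a Low peak of 1625 bp and 2 peaks each in Negative and Sublow, the wider of 275 and 1191 bp. Among these 5 the Negative peak was widest at chr13:46790721-46792495 (1775 bp), where it reached 1264 bp, beside a Sublow peak of 1692 bp and 2 Low peaks, the wider of 759 bp.

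Members were found on every chromosome in the lists. Of the regions of Negative, Sublow and Low, High lacked between 17.6% (chromosome 17, 15.8 to 19.6%) and 25.2% (chromosome 14, 22.8 to 27.6%) on the autosomes, with a median over them of 20.9%. On the X chromosome, High lacked 27.0% (23.7 to 30.5%) of 677 regions, against 21.1% (20.7 to 21.5%) on the autosomes. With a widest peak from 250 to under 500 bp the shares were 55.0% (47.6 to 62.3%) of 189 X regions and 40.2% (39.2 to 41.2%) of autosomal ones. For absence from Negative, X had 19.4% (16.4 to 22.8%) and the autosomes 18.4% (18.0 to 18.8%) over all widths, and 46.5% (38.2 to 55.0%) and 35.4% (34.4 to 36.5%) in that size class. The sex of the animals behind each list is not given in the labels, and its part in the X values was not tested. The Y chromosome held 3 members among 25 merged regions.

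**Figure D5:**
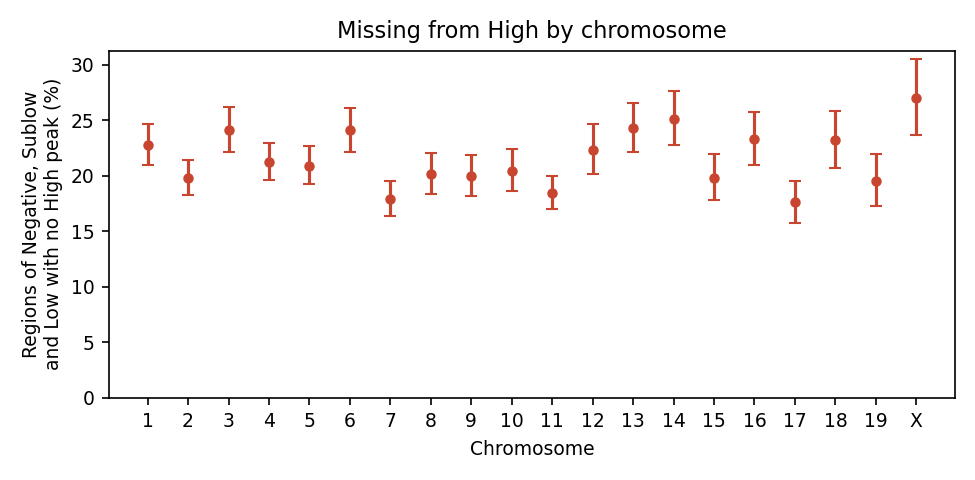
Share of regions of Negative, Sublow and Low with no High peak (y axis, percent) for each autosome and X (x axis); bars are exact 95% binomial intervals. Values on the autosomes run from 17.6% to 25.2%, and X has 27.0%.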

How the data were processed

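Per the submitters' processing notes, the tools were MACS2 2.1.2, Bowtie2 2.3.4, deepTools 2.5.2, Trim Galore 0.4.3 and Picard 2.10.3, and the build was mm9. For settings, the Tn5 offset and the rule that combined 3 libraries into a consensus list, the sources used here give nothing. What the authors deposited is 1 list of peak positions per population, with no score, signal or count. Peaks within a list never overlapped, and positions were read as counted from 1 with the end included. Low peaks on chromosome 7 reached position 152519381, past the last GRCm38 gene of the RefSeq table at 145324059. That table's coordinates were therefore not used. No genome of that build was used here, so no region was assigned to a gene, motif or sequence, and the gene, marker and motif lists drawn up were not applied.

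Intervals of medians are exact order-statistic intervals. Named regions are the 5 windows of 100 kb with the most members (ties in genome order), the 5 longest runs, the 5 widest members and the 3 with the widest gap to a High peak; the member nearest to a High peak was added after its value was seen. The members and lists were chosen with earlier results of these data known, and the classes of width, ratio and spacing after seeing the lists. Merging, pattern calls and gaps were tested on simulated data with 1 peak per list, each holding the centre of its region. Peaks joined in chains, touching peaks and several peaks of 1 list in a region were not simulated. Alternatives were another overlap rule, merging gap, peak minimum, list length, chromosome set and margin around High peaks. Computations used scipy 1.17.1, pandas 2.3.3 and numpy 2.4.6 under Python 3.11.15, and figures matplotlib 3.10.9.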

Additional observations from a re-analysis of the deposited data

How the results depend on the processing

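No paired analysis was possible because the deposited lists pool the libraries of a population, so no library could be left out either. Alternatives that need an mm9 genome or annotation (position at starts of genes, gene lists, motifs, GC content) were not run. Of 65 alternative values, 30 stayed within the interval of the reported value (or, for the number of members, within 1.5 times it) and 35 moved; the cause was not tested unless named. With a reciprocal overlap of 50%, members were 7.98% of merged regions, with a median width of 467 bp, peaks of 368 bp (Negative), 420 bp (Sublow) and 375 bp (Low), and 10.4% had a member as nearest region, against 14.4% with the lists merged as reported. That rule gives more regions by splitting peaks of unequal width. With peaks up to 500 bp apart merged, the median width was 468 bp. With peaks of at least 200 bp, which removes narrow peaks by construction, members were 9.21%, with a median width of 505 bp, peaks of 378, 455 and 401 bp, Sublow widest in 48.5% and a member as nearest region in 13.6%. With the widest 22730 peaks of each list there were 2550 members (7.43%), with a median width of 743 bp, peaks of 581, 696 and 658 bp, Sublow widest in 51.5% and a member as nearest region in 11.3%. With no High peak within 1000 bp, members were 7.95% and a member was the nearest region in 15.3%. A High peak lay within 500 bp of 4.11% of members and within 5000 bp of 44.0%.

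Further alternatives were chosen after seeing the data and run for 2 of the 5 width classes and, among ratio classes, only from 500 to under 750 bp. The widest peaks were used for the widest class only, so no fall with width was examined under them. The share missing from High at a widest peak from 250 to under 500 bp was 42.6% with reciprocal overlap and 46.2% with peaks of at least 200 bp, and from 1000 bp up it was 5.27%, 3.10% and, with the widest peaks only, 5.37%. From 500 to under 750 bp, with peaks of at least 200 bp, it was 72.9% at a Negative to Low ratio of 2 or more, 27.6% under 0.5 and 19.0% at like widths, where reciprocal overlap gave 22.1%. Under each of these settings a region can count as missing although the full High list has a peak there. Depth is unknown, so a region without a High peak may be closed or missed.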
